A study of Mus musculus and Homo sapiens with 30 samples.

Results

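The genes described here encode 10 mouse enzymes that clear aldehydes and related carbonyls formed when membrane lipids oxidise: the aldehyde dehydrogenases Aldh3a1, Aldh3a2, Aldh2, Aldh7a1 and Aldh9a1, the aldo-keto reductases Akr1a1, Akr1b3 and Akr1b8, the enone reductase Ptgr1 and the carbonyl reductase Cbr1. They were chosen by name, for their enzymatic role and with earlier results of these data known, and are 10 of the 56980 gene IDs in the mouse count table. In the human table of 61552 IDs, 3 counterparts were followed by ID: ALDH2 (ENSG00000111275), ALDH3A2 (ENSG00000072210) and PTGR1 (ENSG00000106853).

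RNA was measured in 30 libraries from 3 cell lines, and the series title links an oxylipin from lean adipocytes with ferroptosis, cell death by peroxidation of membrane lipids. E0771 is a mouse mammary cancer line (3 libraries per medium), NMuMG comes from the epithelium of the mouse mammary gland (3 per medium, and listed by the labels among the breast cancer cells) and SkBr3 is a human breast cancer line (4 per medium). After 36 h of growth, cells spent 16 h in 1 of 3 media. The control was the line's growth medium with 10% serum, and the other media were 50% growth medium and 50% secretome, which is medium conditioned by inguinal adipocytes that were either lean or obese. The labels do not give the species of the adipocytes, their donors or how the donors became obese. NMuMG medium also held insulin and added glucose in all 3 groups, which the E0771 medium did not, so line and medium cannot be told apart between these lines. Because the control medium held no secretome, lean against obese secretome is the matched comparison. Both secretome comparisons with control share the same control libraries. The labels do not say whether replicates were separate cultures, so p-values measure the spread between these libraries, which may be technical.

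Library totals ran from 22929035 to 31094119 counts in E0771, from 23966897 to 29686456 in NMuMG and from 18479433 to 29195499 in SkBr3. Levels are given as CPM, counts scaled to the same total in every library. Of 7 epithelial markers, Krt8 made up nearly all of the summed level in E0771 (228.9 to 258 CPM), Krt18 had 0 counts in the control libraries and Epcam and Cdh1 were at or near 0. The sum in NMuMG was 6129 to 7368 CPM, mostly from Krt8 and Krt18, with Cdh1 and Krt7 also present. Epcam was low there, at 1.59 to 2.66 CPM, and Cldn3 and Cldn7 were at or near 0 in both lines. Adipocyte markers summed to 0.751 to 1.61 CPM in E0771 and to 0.372 to 2.19 CPM in NMuMG. Lep, a defining adipocyte gene, had 0 counts in every mouse library. In E0771 most of the sum came from Fabp4, at 0.643 to 1.53 CPM. The adipocyte sum was 2.03 to 2.19 CPM with lean and 0.372 to 1.08 CPM with obese secretome in NMuMG, nearly all of it from Cidec, with the other adipocyte markers at or near 0. A sum of 5 mesenchymal markers was lower with lean than with obese secretome in E0771 (2003 to 2225 against 2923 to 3052 CPM, mostly Vim) and in NMuMG (2986 to 3111 against 3506 to 3700 CPM). In E0771 Fn1 had 0 counts and Cdh2 was at or near 0. In NMuMG Fn1 (886.3 to 1027 against 1285 to 1522 CPM) and Vim (1763 to 1795 against 1875 to 1926 CPM) were lower with lean secretome. Cdh2 was higher there (265 to 282.5 against 238.7 to 259.8 CPM). The epithelial sum in NMuMG was 7159 to 7368 CPM with lean and 6129 to 6452 CPM with obese secretome. The part of these markers in the results was not tested.

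Peroxidation of polyunsaturated fatty acids breaks their chains into reactive aldehydes such as hydroxynonenal, malondialdehyde and acrolein, which attack proteins and DNA. Cells remove them by oxidising the aldehyde group to a carboxylic acid (aldehyde dehydrogenases), by reducing it to an alcohol (aldo-keto and carbonyl reductases), by saturating the double bond next to it (Ptgr1), or by coupling it to glutathione. Several of these genes are textbook targets of NRF2, the transcription factor of the electrophile response, and Aldh3a1 is also a classical target of the aryl hydrocarbon receptor (AhR).

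The RefSeq promoter table (GRCm38.p6) held 6 of the 10 mouse genes: Aldh3a2, Aldh9a1, Akr1a1, Akr1b8, Ptgr1 and Cbr1. The window from 250 bases before to 50 after each start was searched on both strands for the letters TGACNNNGC, the core of the antioxidant response element bound by NRF2, and GCGTG, the core bound by AhR. TGACNNNGC was found in 1 of the 6 (Aldh9a1, 87 bases before the start), beside 12.4% of 32851 promoters, and GCGTG in 4 of the 6 (Aldh3a2, Aldh9a1, Akr1b8 and Cbr1), beside 32.4%. A match describes letters in this window and does not show binding. The 250 bases before the start are shown for Akr1b8 (chr6:34353896-34354145, plus strand) and Cbr1 (chr16:93607587-93607836, plus strand), the genes with the largest response in NMuMG among those with an entry, and for Aldh9a1 (chr1:167349741-167349990, plus strand), which held both motifs. Capitals mark the motif matches, with CACGC being GCGTG read on the other strand.
Akr1b8: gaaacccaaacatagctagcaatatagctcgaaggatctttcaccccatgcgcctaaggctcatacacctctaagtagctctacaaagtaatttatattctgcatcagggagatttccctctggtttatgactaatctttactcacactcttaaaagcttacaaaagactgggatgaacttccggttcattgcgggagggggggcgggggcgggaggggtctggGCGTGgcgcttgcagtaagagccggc
Cbr1: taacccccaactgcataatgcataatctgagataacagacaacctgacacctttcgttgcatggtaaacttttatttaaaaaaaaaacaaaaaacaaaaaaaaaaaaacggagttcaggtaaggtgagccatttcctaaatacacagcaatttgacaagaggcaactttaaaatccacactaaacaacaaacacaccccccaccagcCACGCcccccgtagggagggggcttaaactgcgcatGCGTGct
Aldh9a1: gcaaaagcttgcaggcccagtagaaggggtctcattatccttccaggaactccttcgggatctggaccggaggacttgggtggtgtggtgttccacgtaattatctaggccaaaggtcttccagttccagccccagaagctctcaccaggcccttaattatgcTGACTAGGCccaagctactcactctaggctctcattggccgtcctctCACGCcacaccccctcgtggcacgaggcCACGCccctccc

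In control medium the enzymes differed widely in level and were led in both lines by the reductases Akr1a1 and Akr1b3. On a per-length scale (CPM per kilobase of the principal transcript), Akr1a1 had 230.7 CPM per kilobase in E0771 and Akr1b3 197 CPM per kilobase, followed by Aldh2 at 114, and Aldh3a1 was lowest at 0.216, below Cbr1 at 0.487. In E0771 no neighbouring levels in this order overlapped between their libraries. In NMuMG Akr1a1 (262 CPM per kilobase) and Akr1b3 (237) overlapped, Akr1b8 (84.7) and Aldh2 (60.8) came next, and Aldh3a1 was again lowest at 1.35.

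All 10 genes differed between the untreated lines, 7 higher and 3 lower in NMuMG, in a comparison where edgeR's quasi-likelihood test with Benjamini-Hochberg adjustment called 80.5% of the 16529 genes tested (43.4% higher and 37.1% lower). Cbr1, a cytosolic reductase of quinones, prostaglandins and lipid aldehydes, stood furthest apart: the control libraries had 0.474, 0.634 and 0.698 CPM in E0771 and 20.6, 20.1 and 19.9 CPM in NMuMG, a log2 difference of 5.18 (SE 0.171, adjusted p = 7.78e-25). Aldh3a1 was higher in NMuMG by 2.74 on the log2 scale, Akr1b8 by 2.02 and Aldh3a2 by 1.56. Aldh2, Ptgr1 and Aldh9a1 went the other way, with log2 differences of -0.79, -0.74 and -0.20.

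**Figure D1:**
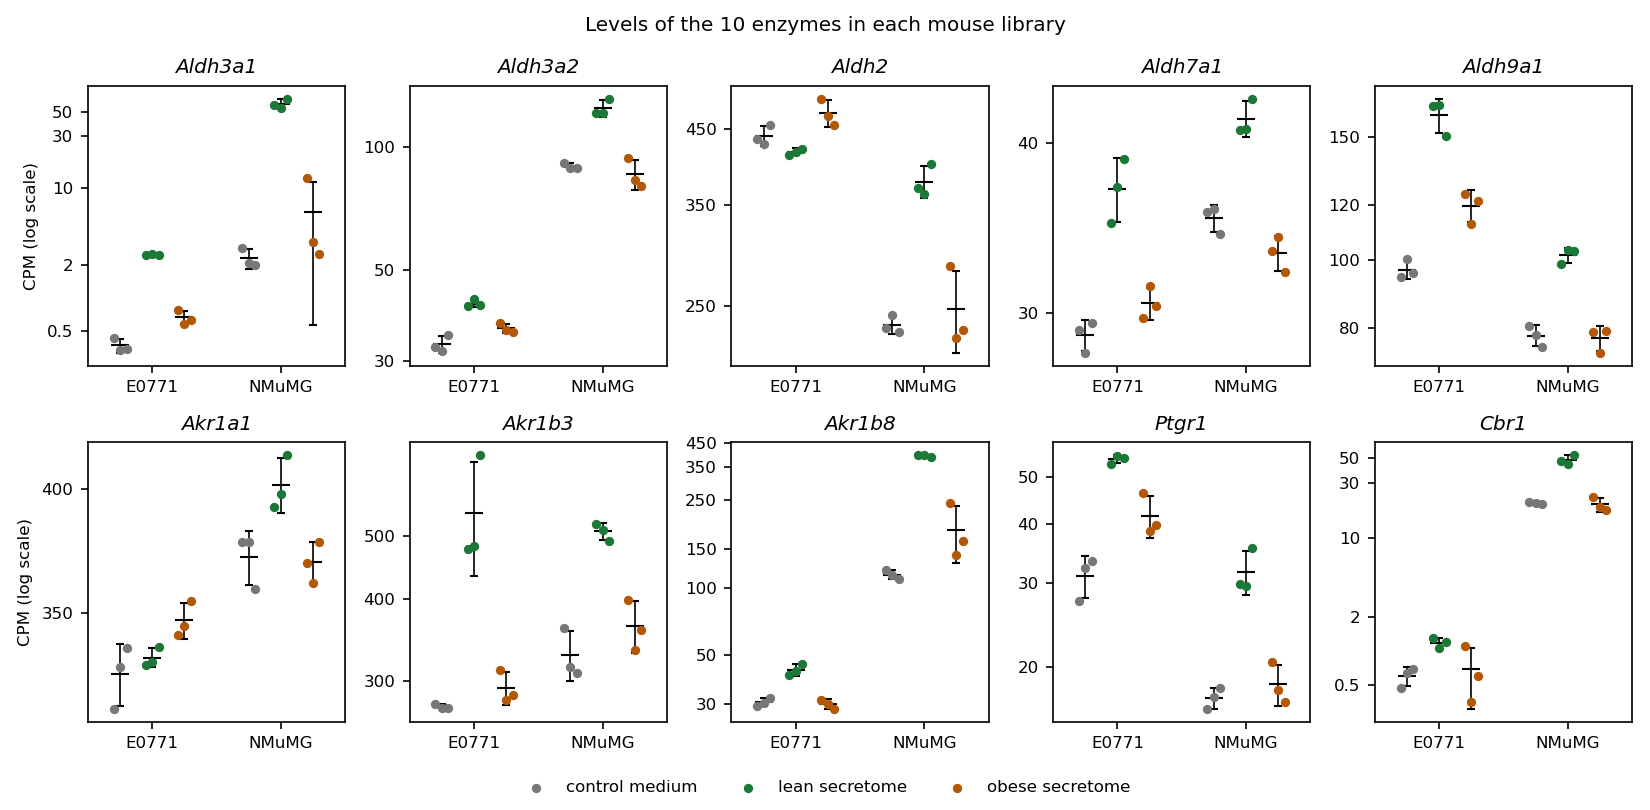
Level of each of the 10 mouse enzymes in every library, as CPM on a log axis, with 1 point per library, by line and medium. In NMuMG the lean secretome libraries lie above both other media for each gene, and in E0771 the same holds except for Aldh2, which lies below both, Akr1a1, and Cbr1, whose lean libraries overlap obese replicate 1.

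Lean secretome libraries had more transcript of most of these enzymes than obese secretome libraries in both mouse lines, and the cytosolic dehydrogenase Aldh3a1 differed most. In E0771, 7 of the 10 genes were higher with lean secretome and 1 was lower, where the test called 25.8% of 13813 genes higher and 26.9% lower (52.7% in all). In NMuMG all 10 were higher, where 17.6% of 15014 genes were higher and 17.4% lower (35.0% in all). The median log2 difference of the 10 genes was 0.41 in E0771 and 0.56 in NMuMG, beside a median of 0.00 over all genes tested in either line. Library by library, every lean value lay above every obese value for 7 genes in E0771 (as for 30.6% of all genes) and below for 2 (29.7%), Aldh2 and Akr1a1. In NMuMG it lay above for 10 (24.4%) and below for 0 (20.8%). All 10 genes passed the filter on low counts in both lines; the thinnest were Aldh3a1 in E0771, for which 3 of 3 lean, 3 of 3 obese and 1 of 3 control libraries reached the filter's level, and Cbr1 in E0771.

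Aldh3a1 encodes a dehydrogenase of medium-chain and aromatic aldehydes that is best known as an abundant protein of the cornea. The E0771 libraries had 2.50, 2.54 and 2.48 CPM with lean secretome, 0.785, 0.590 and 0.638 CPM with obese secretome and 0.438, 0.336 and 0.349 CPM in control medium. The 3 media did not overlap, with lean highest and control lowest, on counts of 8 to 77 reads. The lean against obese log2 difference was 1.89 (SE 0.241, 3.70-fold, adjusted p = 4.31e-07 by edgeR's quasi-likelihood test). The NMuMG libraries had 57.9, 54.2 and 65.7 CPM with lean secretome, 12.4, 3.26 and 2.53 CPM with obese secretome and 2.90, 2.11 and 2.00 CPM in control medium. Every lean library was far above the rest, and obese replicate 1 stood between the lean and the other obese libraries. The log2 difference was 3.30 (SE 0.443, 9.85-fold, adjusted p = 0.00147 by edgeR), and without obese replicate 1 it was 4.35 (20.4-fold, adjusted p = 2.28e-22).

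Aldh3a2 lies next to Aldh3a1 on mouse chromosome 11 in the RefSeq gene order and encodes the membrane-bound fatty aldehyde dehydrogenase of the endoplasmic reticulum. In NMuMG it had 121, 121 and 131 CPM with lean secretome, 94.0, 82.7 and 80.2 CPM with obese secretome and 91.4, 89.0 and 88.7 CPM in control medium. Lean libraries lay above both other media, which overlapped each other. The lean against obese log2 difference was 0.52 (SE 0.0482, adjusted p = 1.98e-09 by edgeR). In E0771 the levels were 40.9, 42.5 and 41.1 CPM with lean, 37.2, 35.7 and 35.3 CPM with obese secretome and 32.4, 31.8 and 34.8 CPM in control medium. These media did not overlap, but the lean against obese difference was small, at 0.19 (SE 0.0567, adjusted p = 0.00548 by edgeR).

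Aldh2, the mitochondrial dehydrogenase that oxidises acetaldehyde and hydroxynonenal, moved in opposite directions in the mouse lines. E0771 libraries had 412, 417 and 421 CPM with lean secretome, 497, 469 and 455 CPM with obese secretome and 435, 428 and 456 CPM in control medium. Lean libraries were the lowest of the 9, and the log2 difference from obese was -0.19 (SE 0.0383, adjusted p = 0.000166 by edgeR). NMuMG libraries had 370.1, 362 and 400.2 CPM with lean secretome, 286, 225 and 232 CPM with obese secretome and 233, 243 and 229.9 CPM in control medium. Here lean libraries were the highest of the 9, with a log2 difference from obese of 0.59 (SE 0.0980, adjusted p = 0.00357 by edgeR).

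Aldh9a1, which makes a precursor of carnitine, and Aldh7a1, a dehydrogenase of lysine breakdown, were higher with lean than with obese secretome in both lines. Aldh9a1 had 166, 167 and 151 CPM with lean, 124, 113 and 122 CPM with obese secretome and 94.7, 101 and 95.9 CPM in control medium of E0771, so the 3 media formed separate steps. Its lean against obese log2 difference was 0.42 in E0771 (adjusted p = 8.93e-08) and 0.38 in NMuMG (adjusted p = 6.92e-09), both by edgeR. In NMuMG the obese libraries of Aldh9a1 (73.8 to 79.4 CPM) overlapped the control libraries (75.4 to 80.7 CPM), below the lean libraries (98.7 to 103 CPM). Aldh7a1 ranged from 34.9 to 38.9 CPM with lean and from 29.7 to 31.4 CPM with obese secretome in E0771, and from 40.9 to 43.1 and from 32.1 to 34.1 CPM in NMuMG. The log2 differences of Aldh7a1 were 0.27 in E0771 (adjusted p = 0.000425) and 0.32 in NMuMG (adjusted p = 1.12e-05), both by edgeR.

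Among the aldo-keto reductases, Akr1b8, an aldose-reductase-like enzyme of unsaturated aldehydes, was higher with lean than with obese secretome in both lines. Its NMuMG libraries had 396, 396 and 390.2 CPM with lean, 242, 142 and 163 CPM with obese secretome and 121, 115 and 109.7 CPM in control medium. The 3 media did not overlap, and obese replicate 1 was again the highest of its group. The lean against obese log2 difference was 1.10 (SE 0.193, adjusted p = 0.00503 by edgeR). E0771 libraries had 40.6, 42.6 and 45.7 CPM with lean, 31.5, 30.2 and 28.5 CPM with obese secretome and 29.5, 30.6 and 32.1 CPM in control medium. Obese and control overlapped there, and the lean against obese difference was 0.51 (SE 0.0620, adjusted p = 2.19e-07 by edgeR).

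Akr1b3 is the mouse aldose reductase, which reduces glucose and lipid aldehydes alike. In E0771 it had 479, 482 and 667 CPM with lean, 311, 280.0 and 285 CPM with obese secretome and 277, 272 and 272 CPM in control medium. Lean libraries lay above the rest, with lean replicate 3 well above its group. The lean against obese log2 difference was 0.89 (SE 0.133, adjusted p = 0.00137 by edgeR), and 0.72 without lean replicate 3. NMuMG libraries had 523, 512 and 492 CPM with lean, 399.8, 334 and 359 CPM with obese secretome and 362, 315 and 308 CPM in control medium, a lean against obese difference of 0.47 (SE 0.0883, adjusted p = 0.00612 by edgeR). Akr1b3, Akr1b8, Akr1b10 and Akr1b7 follow one another on mouse chromosome 6 and are close in sequence, so the split of reads among them is uncertain. Akr1b10, which follows Akr1b8 in that row, moved the other way in E0771. It averaged 21.8 CPM ± 0.777 (SD, n = 3) with lean and 34.3 CPM ± 3.41 (SD, n = 3) with obese secretome. The log2 difference was -0.66 (adjusted p = 2.22e-08 by edgeR). In NMuMG Akr1b10 was higher with lean than with obese secretome, by 0.24 (adjusted p = 0.0024 by edgeR).

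Akr1a1, the general aldehyde reductase that also serves ascorbate synthesis, barely differed. Its E0771 libraries had 331, 332 and 338 CPM with lean and 342, 345 and 355 CPM with obese secretome, beside 316, 330.0 and 337 CPM in control medium. The lean libraries lay below the obese libraries without overlap, but the log2 difference of -0.06 did not pass (95% interval -0.139 to 0.0108, adjusted p = 0.144 by edgeR). NMuMG libraries had 392, 398 and 415 CPM with lean, 369.6, 362 and 378 CPM with obese secretome and 378, 378 and 359 CPM in control medium. The lean libraries were highest, and the log2 difference of 0.11 passed (SE 0.0333, adjusted p = 0.0111 by edgeR) but not without lean replicate 3 (adjusted p = 0.0639) or obese replicate 2 (adjusted p = 0.0649).

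Ptgr1 reduces the double bond of enones, including hydroxynonenal and oxidised prostaglandins and leukotrienes. In NMuMG it had 29.9, 29.6 and 35.5 CPM with lean, 20.4, 17.8 and 16.9 CPM with obese secretome and 16.3, 17.3 and 18.0 CPM in control medium. Lean libraries stood apart above obese and control libraries that overlapped, with a log2 difference from obese of 0.77 (SE 0.0757, adjusted p = 1.52e-09 by edgeR). In E0771 it had 53.4, 55.5 and 55.0 CPM with lean, 46.3, 38.5 and 39.7 CPM with obese secretome and 27.4, 32.3 and 33.4 CPM in control medium. The 3 media formed separate steps, with a lean against obese log2 difference of 0.39 (SE 0.0707, adjusted p = 7.20e-05 by edgeR).

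Cbr1 had 47.5, 44.4 and 53.5 CPM with lean, 22.6, 18.6 and 17.5 CPM with obese secretome and 20.6, 20.1 and 19.9 CPM in control medium of NMuMG. Lean libraries were all above the rest, and the log2 difference from obese was 1.30 (SE 0.0785, 2.45-fold, adjusted p = 2.12e-11 by edgeR). In E0771 the gene was near the limit of what could be counted, with 1.29, 1.05 and 1.19 CPM with lean, 1.10, 0.354 and 0.603 CPM with obese secretome and 0.474, 0.634 and 0.698 CPM in control medium, on 9 to 37 reads per library. Obese replicate 1 overlapped the lean libraries. The log2 difference of 0.77 missed the threshold (SE 0.329, 95% interval 0.0950 to 1.45, adjusted p = 0.0513 by edgeR), and without obese replicate 1 it was 1.27 (adjusted p = 0.00622). Cbr1 lies beside its close relative Cbr3 on mouse chromosome 16, so reads may be split between them. In NMuMG Cbr3 averaged 5.56 CPM ± 0.550 (SD, n = 3) with lean and 1.38 CPM ± 0.221 (SD, n = 3) with obese secretome, a log2 difference of 1.99 (adjusted p = 7.94e-11 by edgeR).

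**Figure D2:**
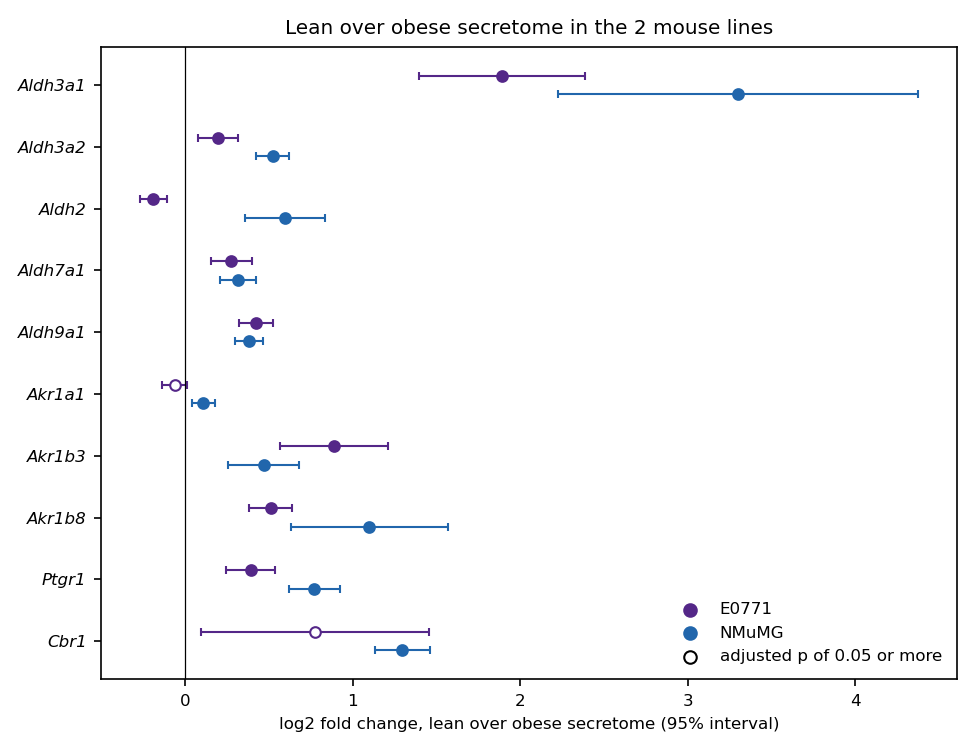
Log2 difference of lean over obese secretome for the 10 enzymes in E0771 and NMuMG, with 95% intervals from the edgeR fit; the line at 0 marks no difference. NMuMG estimates all lie above 0, from 0.11 for Akr1a1 to 3.30 for Aldh3a1, and in E0771 Aldh2 lies below 0 at -0.19.

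Compared with control medium, lean secretome gave the wider differences and obese secretome few. In E0771, 8 of the 10 genes rose with lean secretome and 0 fell (edgeR called 56.3% of genes, 27.3% higher and 29.0% lower), with a median log2 difference of 0.60. Every lean library was above every control library for 8 genes (30.8% of all genes) and below for 1 (30.6%), Aldh2. Aldh3a1 rose by 2.71 on the log2 scale (6.55-fold, adjusted p = 6.67e-09), Cbr1 by 0.96 (adjusted p = 0.0183), Ptgr1 by 0.81 and Aldh9a1 by 0.72. The Cbr1 call did not hold without control replicate 1 (adjusted p = 0.0835) or lean replicate 1 (adjusted p = 0.0578). Aldh2 (-0.09, adjusted p = 0.0519) and Akr1a1 (0.02, adjusted p = 0.742) were the genes that did not pass, although Aldh2 did without control replicate 2 (adjusted p = 0.0422) or lean replicate 3 (adjusted p = 0.0486). In NMuMG 10 of 10 rose with lean secretome (38.2% of genes called, 19.1% higher and 19.1% lower), with a median of 0.66, and lean libraries were above control libraries for all 10 (23.6% of all genes, with 24.4% below). Aldh3a1 rose there by 4.66 (25.2-fold, adjusted p = 0.000474), Akr1b8 by 1.78 (3.43-fold, adjusted p = 0.000518), Cbr1 by 1.26 and Ptgr1 by 0.88. The smallest rise, of Akr1a1 by 0.12, did not hold without control replicate 3 (adjusted p = 0.0599).

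With obese secretome in E0771, 2 genes rose over control, Ptgr1 by 0.42 on the log2 scale (SE 0.0744, adjusted p = 0.00388) and Aldh9a1 by 0.30 (SE 0.0494, adjusted p = 0.00164). The test by edgeR called 2.61% of genes there (1.21% higher and 1.40% lower), and the median of the 10 was 0.11. Aldh3a1 had a log2 difference of 0.82 (95% interval 0.145 to 1.501, adjusted p = 0.210), which did not pass although the 3 obese libraries lay above the 3 control libraries. Aldh3a1, Aldh3a2, Aldh2 and Akr1a1 were higher at an unadjusted p under 0.05 by edgeR, and none of them passed after adjustment. In all, 7 of the 10 genes had every obese library above every control library in E0771, a pattern that 11.8% of all genes showed, and 0 had the reverse, which 9.69% showed. In NMuMG obese secretome changed 0 of the 10 by edgeR's quasi-likelihood test (5.01% of genes called, 2.34% higher and 2.66% lower), with 1 gene, Akr1b8, at an unadjusted p under 0.05 and called by DESeq2 (adjusted p = 0.0208). Obese libraries lay above control libraries for Akr1b8 (8.36% of all genes) and below for Aldh7a1 (13.0%). The Akr1b8 difference was 0.68 (SE 0.199, adjusted p = 0.142), and without obese replicate 1 it was 0.42 with an adjusted p of 9.96e-07. The Aldh3a1 difference in NMuMG was 1.36 (95% interval -0.379 to 3.09, adjusted p = 0.431), and 0.31 without obese replicate 1.

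Obese replicate 1 had the highest level of its group for 8 of the 10 enzymes in E0771 and for 7 of the 10 in NMuMG. Other groups also had such a library. E0771 control replicate 3 and NMuMG lean replicate 3 were each the highest for 7 of the 10. NMuMG control replicate 3 was the lowest for 9 of the 10. Shares over all genes were not counted. Nothing in the labels sets the obese replicate 1 libraries apart. When obese replicate 1 of the line was left out, every enzyme called for lean against obese secretome in E0771 or NMuMG, and both called for obese secretome against control in E0771, kept the call by edgeR and the direction.

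**Figure D3:**
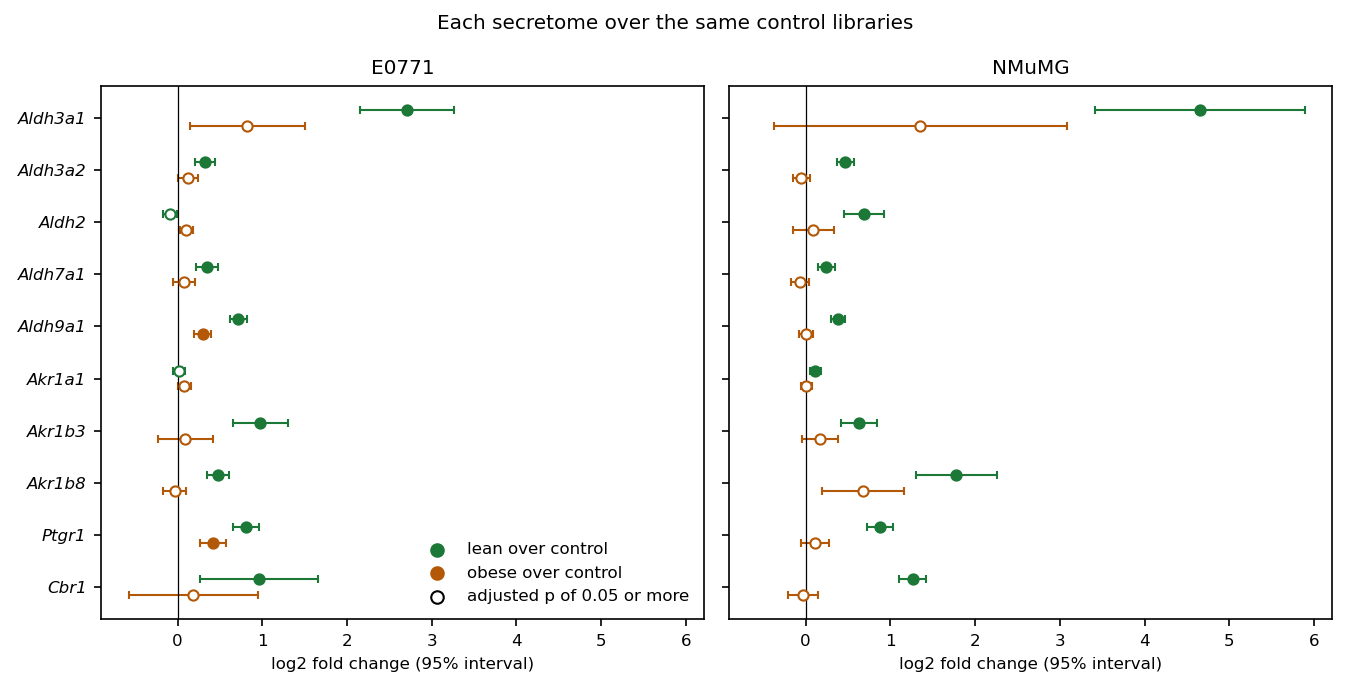
Log2 difference from control medium of lean and of obese secretome for the 10 enzymes, by line, with 95% intervals from the edgeR fit. Lean secretome estimates reach 4.66 for Aldh3a1 in NMuMG, whereas obese secretome intervals cross or lie near 0 for most genes; both sets share the control libraries.

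Whether the lean against obese response differed between the mouse lines was asked with an interaction term, fitted over all 18 libraries together. It passed for 4 of the 10 genes, all with a larger value in NMuMG. Of all genes tested, edgeR called 34.2%, made up of 15.5% with a larger and 18.8% with a smaller value in NMuMG. Aldh2, with opposite directions, differed most clearly: 0.77 on the log2 scale (SE 0.101, 95% interval 0.553 to 0.986, adjusted p = 2.26e-05). Ptgr1 differed by 0.36 (adjusted p = 0.0142), Aldh3a2 by 0.31 (adjusted p = 0.000917) and Akr1a1 by 0.15 (adjusted p = 0.0137). The Ptgr1 call was lost without E0771 obese replicate 1 (adjusted p = 0.0507) or NMuMG obese replicate 3 (adjusted p = 0.0601), and the Akr1a1 call without E0771 obese replicate 3 (adjusted p = 0.0529) or NMuMG obese replicate 2 (adjusted p = 0.0512).

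For Aldh3a1 the lines' responses could not be told apart with all libraries, since the difference of 1.39 had a 95% interval of -0.752 to 3.53 (adjusted p = 0.332 by edgeR). Without NMuMG obese replicate 1 it was 2.44 with an adjusted p of 2.27e-08. Akr1b8 differed by 0.57 (95% interval 0.0796 to 1.06, adjusted p = 0.0716), and by 0.83 without that library (adjusted p = 5.60e-11). For Akr1b3 the estimate was larger in E0771, at -0.44 for NMuMG minus E0771 (95% interval -0.791 to -0.0797, adjusted p = 0.0581), and it passed without E0771 lean replicate 1 (adjusted p = 0.0288), E0771 lean replicate 2 (adjusted p = 0.0305) or NMuMG obese replicate 2 (adjusted p = 0.0439), and with DESeq2 (adjusted p = 0.0338). Without E0771 lean replicate 3, the library well above its group for Akr1b3, the difference was -0.26 (adjusted p = 0.0788). Cbr1 differed by 0.50 (95% interval -0.133 to 1.14, adjusted p = 0.236). Without E0771 obese replicate 1 its difference was 0.00899 (adjusted p = 1.00), and without E0771 obese replicate 2 it passed (adjusted p = 0.0470). Aldh7a1 (0.03, 95% interval -0.133 to 0.184, adjusted p = 0.895) and Aldh9a1 (-0.06, 95% interval -0.190 to 0.0738, adjusted p = 0.557) did not pass by edgeR.

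Against control medium, the response to lean secretome differed between lines for 3 genes (34.5% of genes called by edgeR, 15.1% larger and 19.4% smaller in NMuMG): Akr1b8 by 1.28 (adjusted p = 0.000636) and Aldh2 by 0.75 (adjusted p = 2.97e-05), both larger in NMuMG, and Aldh9a1 by -0.36 (adjusted p = 2.21e-05), larger in E0771. Aldh3a1 (1.92, 95% interval -0.947 to 4.79, adjusted p = 0.313) did not pass by edgeR but did with DESeq2 (adjusted p = 0.0217). The response to obese secretome differed for Aldh9a1 alone among the 10, by -0.30 (adjusted p = 0.00807, 1.69% of genes called, 0.623% larger and 1.06% smaller in NMuMG). Akr1b8 (0.71, adjusted p = 0.198) passed there only without NMuMG obese replicate 1 (0.44, adjusted p = 0.00179) or with DESeq2 (adjusted p = 0.0291). Aldh3a1 (0.53, adjusted p = 0.983) did not pass and changed sign without that library (-0.52, adjusted p = 0.654).

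In SkBr3 the 3 human counterparts all differed between lean and obese secretome, where edgeR called 44.1% of 14874 genes (21.1% higher and 23.1% lower). ALDH3A2 had 149.7, 149.98, 114 and 160.4 CPM with lean, 85.7, 69.4, 71.6 and 85.2 CPM with obese secretome and 64.4, 64.5, 61.5 and 63.6 CPM in control medium. The media did not overlap, and ALDH3A2 was 0.85 higher with lean than with obese secretome on the log2 scale (SE 0.0974, 1.80-fold, adjusted p = 3.88e-05). PTGR1 had 21.5, 22.9, 19.4 and 22.3 CPM with lean, 17.7, 17.5, 17.9 and 16.5 CPM with obese secretome and 17.5, 16.4, 17.3 and 17.2 CPM in control medium. Lean libraries stood above both other media, by 0.28 over obese (SE 0.0641, adjusted p = 0.00119 by edgeR). ALDH2 had 226, 213, 236 and 208 CPM with lean, 248, 240.2, 243 and 247 CPM with obese secretome and 227, 226, 226 and 221 CPM in control medium. Here lean libraries lay below obese libraries, with a log2 difference of -0.18 (SE 0.0380, adjusted p = 0.000577 by edgeR). The value in SkBr3 stands beside -0.19 for Aldh2 in E0771 and 0.59 in NMuMG; human and mouse tables were fitted apart, and the difference between species was not tested.

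Against control medium, lean secretome raised 2 of the 3 in SkBr3 (48.8% of genes called by edgeR, 23.7% higher and 25.1% lower), ALDH3A2 by 1.14 (SE 0.0995, 2.21-fold, adjusted p = 2.81e-06) and PTGR1 by 0.30 (adjusted p = 0.000574). ALDH2 did not pass (-0.07, adjusted p = 0.152), but did without lean replicate 3 (adjusted p = 0.0118). Obese secretome changed 0 of the 3 by edgeR's quasi-likelihood test (1.16% of genes called, 0.605% higher and 0.551% lower), with 2 at an unadjusted p under 0.05, and DESeq2 called 1. Those were ALDH3A2 (0.29, 95% interval 0.0677 to 0.512, adjusted p = 0.214) and ALDH2 (0.11, 95% interval 0.0338 to 0.191, adjusted p = 0.155).

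**Figure D4:**
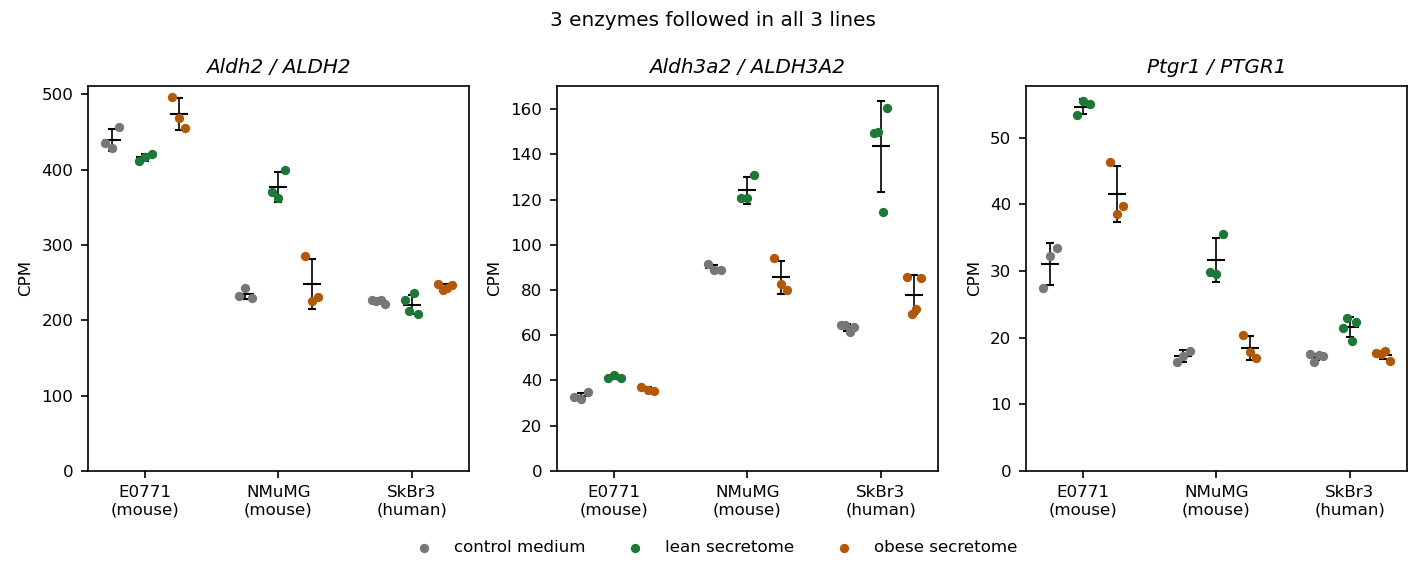
Levels in CPM of Aldh2, Aldh3a2 and Ptgr1 in the mouse lines and of ALDH2, ALDH3A2 and PTGR1 in SkBr3, with 1 point per library, by medium. Lean secretome libraries are highest for the Aldh3a2 and Ptgr1 counterparts in all 3 lines, whereas for the Aldh2 counterpart they lie below obese secretome libraries in E0771 and SkBr3 and above them in NMuMG.

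The related enzymes outside the 10 did not move as 1 block. Beside the counts of the lists that follow, the lean against obese test called 25.8% of all genes higher and 26.9% lower in E0771. In NMuMG it called 17.6% higher and 17.4% lower. Of 16 other aldehyde dehydrogenases, 7 were tested in E0771: 0 were higher and 6 were lower with lean than with obese secretome, and the list's median log2 difference was -0.65. Aldh1l2, a mitochondrial folate enzyme, averaged 61.6 CPM with lean and 145 CPM with obese secretome (log2 difference -1.24, adjusted p = 3.39e-07 by edgeR), and Aldh18a1, which makes a proline precursor, averaged 110.04 and 204 CPM (-0.89, adjusted p = 2.19e-13). Aldh16a1 was lower by a similar amount to Aldh1l2 (-1.20, adjusted p = 8.36e-14). Aldh3b1, which like Aldh3a2 oxidises fatty aldehydes at membranes, was also lower, at 7.99 CPM with lean and 12.5 CPM with obese secretome (-0.65, adjusted p = 4.52e-06). In NMuMG the same gene was higher, by 0.85 (adjusted p = 1.03e-10). In that line 10 of the 16 were tested, with 4 higher, 2 lower and a median of 0.28. Aldh1a1, the retinal dehydrogenase that also oxidises hydroxynonenal, averaged 665 CPM ± 3.61 (SD, n = 3) with lean and 259.8 CPM ± 68.7 (SD, n = 3) with obese secretome (1.34, adjusted p = 0.00136), though its reads may be shared with the near copy Aldh1a7 (2.35, adjusted p = 4.32e-07).

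Of 14 other aldo-keto reductases, 3 were tested in E0771 (0 higher, 2 lower, median -0.55) and 9 in NMuMG (5 higher, 0 lower, median 0.36). The NMuMG genes that rose included Akr1c13 (0.42) and Akr1c12 (0.37), which are near copies of each other. Of 16 other carbonyl and enone reductases, 13 were tested in either line. E0771 had 4 higher and 6 lower (median -0.28), among them Adh7 at 1.33 and Cbr4 at -0.56, and NMuMG had 6 higher and 0 lower (median 0.08).

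The glutathione route, which couples lipid aldehydes to glutathione and exports the product, had 6 of 10 genes tested in E0771, 4 higher and 1 lower (median 0.42), and 10 of 10 tested in NMuMG, 8 higher and 0 lower (median 1.51). In E0771 the exporter Abcc1 averaged 335 CPM with lean and 185 CPM with obese secretome (0.85, adjusted p = 7.22e-05 by edgeR). In NMuMG the transferases Gsta3 and Gsta2 differed by 3.94 and 3.10, and the exporter Abcc2 by 3.08 (adjusted p = 0.000864). The close copies Gsta1 and Gsta2 may share reads. As with the 10 enzymes, obese secretome replicates spread widely for some of these genes: Gsta2 averaged 10.3 CPM ± 11.8 (SD, n = 3) with obese secretome, against 88.0 CPM ± 11.5 (SD, n = 3) with lean.

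Among 10 genes of the NRF2 pathway, which were 8 target genes, Nfe2l2 (NRF2 itself) and its repressor Keap1, 8 were higher and 1 was lower with lean than with obese secretome in E0771 (median 1.00), and 8 were higher and 0 were lower in NMuMG (median 0.72). The 8 that were higher were the target genes in both lines. Keap1 was the gene lower in E0771 (-0.12, adjusted p = 0.0318), and Nfe2l2 did not pass in E0771 (0.11, adjusted p = 0.140) or NMuMG (-0.09, adjusted p = 0.0637). Hmox1, which breaks down heme, averaged 1656 CPM ± 513 (SD, n = 3) with lean and 167 CPM ± 74.5 (SD, n = 3) with obese secretome in E0771 (3.30, adjusted p = 0.000355). Nqo1, a quinone reductase, differed by 1.45 in E0771 (adjusted p = 0.0161 by edgeR) and 1.87 in NMuMG (adjusted p = 0.0204 by edgeR). Its obese secretome libraries spread widely, at 65.1 CPM ± 38.8 (SD, n = 3) in E0771 and 2.18 CPM ± 1.85 (SD, n = 3) in NMuMG. With lean secretome it averaged 179 CPM in E0771 and 7.95 CPM in NMuMG. Of 5 AhR target and pathway genes, 1 was tested in E0771 and was higher (Tiparp, 0.40), and 4 were tested in NMuMG, with 1 higher (Cyp1a1, 1.59, at 1.61 CPM with lean secretome) and 1 lower (Ahr itself, -0.16). Of 6 targets of PPAR, the fatty acid sensing receptors, 2 of 4 tested were higher and 0 lower in E0771, and 5 of 5 were higher in NMuMG, with Angptl4 at 2.46 and 1.33. The median over all genes tested was 0.00 in both lines. Of all genes tested, 25.8% were higher and 26.9% lower in E0771, and 17.6% and 17.4% in NMuMG. These lists were chosen with earlier results of these libraries known and are given as description.

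**Figure D5:**
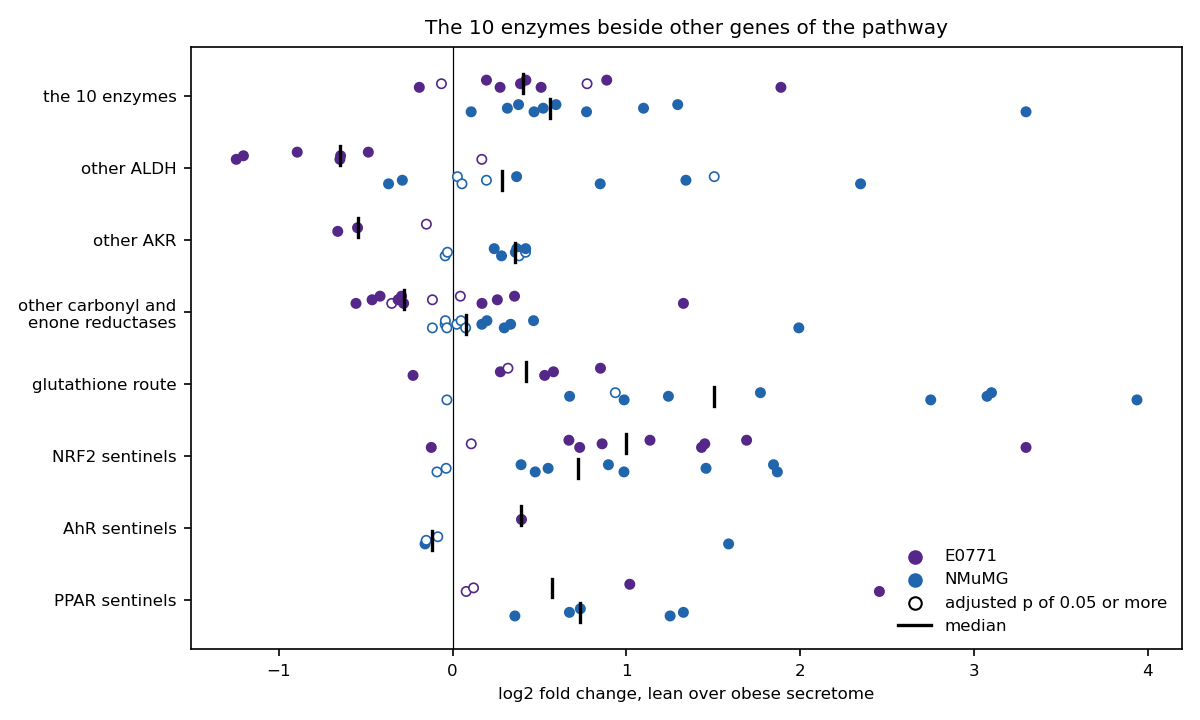
Log2 difference of lean over obese secretome for every tested gene of the 10 enzymes and of each related list, by line, with 1 point per gene and a bar at the list's median. The other aldehyde dehydrogenases have a median of -0.65 in E0771 and 0.28 in NMuMG, and the glutathione route has the widest spread in NMuMG, with a median of 1.51.

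Across the 9 libraries of a line, the genes whose log2 CPM followed each enzyme most closely were listed as a description; the points share media and library depth. In E0771 the closest gene to Aldh3a1 was Ssx2ip (Pearson r = 0.995), to Akr1b8 it was Hk2 (r = 0.993) and to Ptgr1 it was Nptx1 (r = 0.992). In NMuMG the closest gene to Aldh3a1 was Ddc (r = 0.997), to Akr1b8 it was Txnrd1 (r = 0.998) and to Ptgr1 it was Abhd2 (r = 0.991). No gene was the closest to an enzyme in both lines among these 3.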

How the data were processed

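The deposited values are unnormalized counts of reads for each Ensembl gene, in 1 mouse and 1 human table, whole numbers with differing library totals. Poly(A) RNA was made into directional paired-end libraries, per the labels. The submitters' processing notes name cutadapt 1.16, STAR 2.7.9a, featureCounts 1.6.3 and GRCm39; the human build, annotation release and strand setting are not given in the sources used here, so antisense or overlapping genes may share reads. Symbols came from GENCODE M21, which matched 52073 of 56980 mouse IDs (99.68% of counts). Human genes were found by ID.

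Each line was fitted alone with 3 media in edgeR 4.0.16 (R 4.3.3): filterByExpr (minimum count 10, total 15), TMM factors (0.987 to 1.02 within lines), robust quasi-likelihood fit and F test, Benjamini-Hochberg adjustment over all genes tested, and calls at an adjusted p under 0.05. The contrast of the mouse lines came from 1 fit of 18 libraries and 6 groups. SEs and 95% intervals came from the F statistics. CPM used raw library totals; per-length levels divide by the longest APPRIS principal transcript in GENCODE M21. Correlations used log2 CPM with a prior count of 2. Reads had no molecular identifiers, so counting precision overstates the number of molecules seen. The fit was tested on simulated data that gave every gene the same spread between libraries and held no deviating library. That test does not cover groups with a deviating library or genes with a wider spread.

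Alternatives were DESeq2 size factors, no filter on low counts, DESeq2 1.42.0, a replicate block, each library left out and, per line, only the 2 compared groups. The enzymes and lists were chosen with earlier results of these data known. In each list the genes named were up to 4 called in the lean against obese comparison with the largest absolute log2 difference; the statistics of some are given in full and others only counted. Promoter sequences are RefSeq's on GRCm38.p6.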

Additional observations from a re-analysis of the deposited data

Results flagged for a closer look

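These enzymes passed the interaction test for a different response in the 2 mouse lines, in the 18-library edgeR fit. Values are NMuMG minus E0771 on the log2 scale. For lean against obese secretome, where 34.2% of all genes tested were called, the differences were 0.7698 for Aldh2, 0.3634 for Ptgr1, 0.3098 for Aldh3a2 and 0.1547 for Akr1a1. The Ptgr1 and Akr1a1 calls were each lost when some single libraries were left out. For lean secretome against control medium (34.5% of all genes called) the differences were 1.2775 for Akr1b8, 0.7482 for Aldh2 and -0.3613 for Aldh9a1. For obese secretome against control medium (1.69% of all genes called) the difference was -0.303 for Aldh9a1. The comparisons with control share its libraries and are not independent of each other. The media of the lines also differed in insulin and glucose.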

How the results depend on the processing

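Over single genes and alternatives, 1301 results kept their direction and side of the threshold, 24 became called, 9 were lost and 23 changed sign. The sign changes all came from leaving out 1 library, and none was called. Over the libraries left out, log2 differences ran from -0.0136 to 0.0477 for Akr1a1 with lean secretome against control in E0771. For obese secretome against control they ran in E0771 from -0.0715 to 0.0106 for Akr1b8 and from -0.31 to 0.50 for Cbr1, and in NMuMG from -0.0285 to 0.156 for Aldh2, -0.0227 to 0.0387 for Aldh9a1, -0.0162 to 0.0269 for Akr1a1 and -0.151 to 0.0447 for Cbr1. Differences between lines ran from -0.0161 to 0.0595 for Aldh7a1 (lean against obese), from -0.0108 to 0.138 for Ptgr1 (lean against control) and, for obese against control, from -0.52 to 0.92 for Aldh3a1, -0.141 to 0.0468 for Aldh2, -0.00775 to 0.145 for Akr1b3 and -0.52 to 0.26 for Cbr1.

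The number of enzymes called for obese secretome against control moved from 0 to 1 in NMuMG (DESeq2, the replicate block, and without obese replicate 1, so 0 to 1 over the libraries left out) and in SkBr3 from 0 to 1 (DESeq2 and the replicate block) or 2 (only the 2 compared groups). The number that differed between lines for obese against control moved from 1 to 2 with DESeq2 and without NMuMG obese replicate 1 (1 to 2 over the libraries left out). The cause was not tested. Lean against obese, 8 to 9 were called in E0771, 9 to 10 in NMuMG and 3 in SkBr3 over all alternatives. The main fits called 52.7%, 35.0% and 44.1% of all genes in that comparison. For obese against control they called 5.01% in NMuMG and 1.16% in SkBr3, and 1.69% differed between lines. Shares over all genes were not counted for the alternatives.

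Deviations from group means were correlated between same-numbered libraries, over all genes tested. The correlations ran from -0.0942 to 0.11 in E0771 (9 pairs), -0.0285 to 0.025 in NMuMG (9) and -0.0452 to 0.0523 in SkBr3 (12). Counting noise can hold such correlations near 0, so they do not show whether same-numbered libraries were paired. In the fit with a replicate block, Cbr1 in E0771, lean against obese, had an adjusted p of 0.0485 (edgeR), Akr1b3 in NMuMG, obese against control, 0.00748, and ALDH3A2 in SkBr3, obese against control, 0.04998. Depth limits Aldh3a1 and Cbr1 in E0771, with 8 to 77 and 9 to 37 reads per library.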
